A study of Mus musculus with 6 samples.

Results

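Hydroxysteroid dehydrogenases and steroid reductases decide which form of a steroid a liver cell holds. They were followed here through 10 genes, *Hsd3b2*, *Hsd3b3*, *Hsd3b5*, *Hsd3b7*, *Hsd11b1*, *Hsd17b2*, *Hsd17b6*, *Hsd17b11*, *Hsd17b13* and *Srd5a1*, chosen by symbol from the 54446 genes listed in the deposited counts. RNA had been sequenced from livers of mice of 2 genotypes, 3 WT and 3 *Fmo5*-/-, all male, 32 weeks old and labelled C57BL/6, with 1 library of single reads per mouse. *Fmo5* encodes a flavin-containing monooxygenase of the endoplasmic reticulum that is abundant in liver. By the study's methods the WT mice were C57BL/6J and the line had been made on that background, the mice ate chow without restriction, and both genotypes were kept in neighbouring cages. The comparison asks how loss of *Fmo5* altered liver gene expression. Because *Hsd3b2*, *Hsd3b3* and *Hsd3b5* are near neighbours of *Fmo5* on chromosome 3, they were set against the 7 genes that lie on other chromosomes.

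As background, enzymes of the HSD3B family act on the hydroxyl group at the A ring of steroids. In the mouse, *Hsd3b2* and *Hsd3b3* belong to the forms that oxidize delta-five precursors to active ketosteroids, whereas *Hsd3b5* is a male-biased liver form that reduces ketosteroids, and *Hsd3b7* acts on sterols early in bile acid synthesis. HSD11B1 regenerates active glucocorticoid inside the cell, using NADPH made by H6PD in the endoplasmic reticulum. HSD17B2 and HSD17B6 are best known as oxidases of estrogens and androgens, HSD17B11 and HSD17B13 are proteins of the lipid droplet surface, and SRD5A1 reduces the double bond of testosterone and of other steroids in the A ring. Male bias in mouse liver genes, that of *Hsd3b5* included, is known to depend on pulses of growth hormone acting through STAT5B.

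The libraries held between 44886286 and 52338675 counts on genes. Counts were scaled by TMM and the genotypes compared with the quasi-likelihood test of edgeR over 16734 genes. A gene was called where the Benjamini-Hochberg adjusted p was under 0.05, and values per mouse are normalized counts given in the order of replicates 1 to 3. Hepatocyte markers summed to between 116621 and 145860 CPM (counts scaled to a common library size), and 0 of their 9 tested genes were called by edgeR (1 had an unadjusted p under 0.05, and DESeq2 called 0). Kidney markers summed to at most 0.174 and adrenal cortex markers to at most 4.94 CPM in any library. *Fmo5* had normalized counts of 39807.4, 37405.0 and 30239.5 in WT mice and 1071.4, 1102.3 and 1193.8 in *Fmo5*-/- mice (log2 fold change -5.00, edgeR adjusted p = 2.8e-07), and was the gene with the smallest adjusted p among those that fell. The gene with the smallest adjusted p among those that rose was *Rps3a3*, which resembles a ribosomal protein gene with near-identical copies and is therefore uncertain (log2 fold change 6.33). Of all tested genes 1.37% were called (0.675% higher and 0.693% lower after loss of *Fmo5*), and 49.2% had a log2 fold change below 0. An unadjusted p under 0.05 was found in 21.8%, and counts of that kind in the lists are read against this share. DESeq2 called 4.75% higher and 4.21% lower. In 27.4% the 3 mice of one genotype all lay above the 3 of the other. In bulk tissue, fewer cells of a type and less RNA per cell cannot be told apart.

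*Hsd3b2*, *Hsd3b3* and *Hsd3b5* form a tandem family with near-identical relatives, so the sequences that separate their reads are shown first. On mm10 the family spans 414 kb of chromosome 3, from 98445675 to 98859794, and begins 790 kb from the end of *Fmo5* (chr3:97628804-97655282, plus strand). All 3 genes lie on the minus strand, *Hsd3b5* (ENSMUSG00000038092.6) at chr3:98618634-98630252, *Hsd3b2* (ENSMUSG00000063730.13) at chr3:98709255-98724543 and *Hsd3b3* (ENSMUSG00000062410.14) at chr3:98741523-98763127. *Hsd3b2* and *Hsd3b3* lie 17 kb apart. The longest open reading frames of the GENCODE vM21 transcripts were 1122 bases in each of the 3 genes. Those of *Hsd3b2* and *Hsd3b3* aligned without a gap and were identical at 1067 bases (95.1%), whereas *Hsd3b5* was 80.8% identical to *Hsd3b2* and 81.1% to *Hsd3b3*. Across the frames of *Hsd3b2* and *Hsd3b3*, 26.4% of the 1048 windows of 75 bases, the length of a read, held no difference, and the median window held 4. The window with most differences, bases 582 to 656 counted from the first base of the start codon, held 15. It is given here 5′ to 3′ for both genes, with the bases that differ between them in capitals, to show what let a read be assigned to one gene or the other.
Hsd3b2: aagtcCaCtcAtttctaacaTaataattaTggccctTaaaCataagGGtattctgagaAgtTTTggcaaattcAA
Hsd3b3: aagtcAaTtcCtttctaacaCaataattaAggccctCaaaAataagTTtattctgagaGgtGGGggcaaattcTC

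*Hsd3b2* differed from the other two genes more around the start site than in the reading frame. The RefSeq windows from 250 bases before to 50 bases after the annotated start (GRCm38.p6) are printed for the 3 cluster genes because *Hsd3b2* and *Hsd3b3* had opposite signs of change in *Fmo5*-/- mice. That of *Hsd3b2* is chr3:98724494-98724793, that of *Hsd3b3* chr3:98763079-98763378 and that of *Hsd3b5* chr3:98645485-98645784, all on the minus strand. Capitals mark the letters CAAAGTCCA, the core of an HNF4A motif, on either strand.
Hsd3b2: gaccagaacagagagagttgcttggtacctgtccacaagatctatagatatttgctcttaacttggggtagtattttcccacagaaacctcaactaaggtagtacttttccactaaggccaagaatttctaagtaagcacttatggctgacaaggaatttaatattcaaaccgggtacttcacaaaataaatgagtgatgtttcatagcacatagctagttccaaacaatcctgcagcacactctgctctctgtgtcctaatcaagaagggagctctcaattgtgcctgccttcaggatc
Hsd3b3: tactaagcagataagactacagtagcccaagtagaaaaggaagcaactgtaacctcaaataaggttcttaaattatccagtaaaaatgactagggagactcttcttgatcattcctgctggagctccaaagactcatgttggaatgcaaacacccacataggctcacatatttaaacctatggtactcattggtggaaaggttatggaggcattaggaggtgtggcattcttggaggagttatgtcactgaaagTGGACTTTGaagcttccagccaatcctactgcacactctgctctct
Hsd3b5: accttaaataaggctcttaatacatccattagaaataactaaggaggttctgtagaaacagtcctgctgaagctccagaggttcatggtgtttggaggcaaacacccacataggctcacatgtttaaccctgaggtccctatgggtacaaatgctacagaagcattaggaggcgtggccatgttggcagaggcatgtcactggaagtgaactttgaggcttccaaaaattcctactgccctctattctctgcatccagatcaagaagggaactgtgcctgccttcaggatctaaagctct
*Hsd3b2* and *Hsd3b3* were 53% identical over 281 aligned bases here, *Hsd3b2* and *Hsd3b5* 58.2% over 280, and *Hsd3b3* and *Hsd3b5* 77.1% over 249. The windows are not set at matching points, since the stretch cacactctgctctct ends that of *Hsd3b3* but lies further inside that of *Hsd3b2*. These shares therefore depend in part on where the starts are annotated. A second RefSeq start of *Hsd3b3* (chr3:98762361-98762660) had a window 99.3% identical to the first, with the same motif. The RefSeq start of *Hsd3b5* lies upstream of the GENCODE vM21 gene. RefSeq windows were found for 9 of the 10 genes, 11 windows in all. Both windows of *Hsd3b3* held CAAAGTCCA on the opposite strand, as TGGACTTTG, beginning 4 and 3 bases after the start, and 0.475% of all 32851 RefSeq windows held this motif on either strand. The window of *Hsd3b7* held TTCNNNGAA, the letters of a STAT5 motif, as TTCCTGGAA beginning 21 bases before the start, as did 8.3% of all windows. Neither TATAAA, the letters of the core promoter box (13.6% of all windows), nor TTGCGCAA, those of a C/EBP motif (0.183%), occurred in any of the 11 windows on either strand.

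*Hsd3b3* was lower in *Fmo5*-/- mice and was the 1 gene of the 9 tested that was called. Its normalized counts were 7706.5, 8785.2 and 7841.0 in WT mice and 2613.2, 3464.9 and 3447.9 in *Fmo5*-/- mice. Every *Fmo5*-/- mouse lay below every WT mouse, with a wide gap between the genotypes. The means were 8110.9 ± 587.8 in WT and 3175.3 ± 486.9 in *Fmo5*-/- mice (SD, n = 3 each), so that *Hsd3b3* fell to 0.391 of its WT level (log2 fold change -1.35, standard error 0.12, 95% interval -1.63 to -1.08, edgeR adjusted p = 0.0016). By its p it ranked 14 of the 16734 tested genes. *Hsd3b3* was called without each of the 6 mice in turn, with log2 fold changes between -1.42 and -1.23.

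*Hsd3b2* had higher values in *Fmo5*-/- mice but was not called. Its normalized counts were 3178.1, 2777.4 and 3013.1 in WT mice, a spread of 6.74% of the mean, and 4626.4, 6370.8 and 9076.3 in *Fmo5*-/- mice, a spread of 33.5%. Every *Fmo5*-/- mouse lay above every WT mouse, and *Fmo5*-/- mouse 3 held nearly double the count of mouse 1. The log2 fold change was 1.16 (standard error 0.23, 95% interval 0.62 to 1.70, edgeR adjusted p = 0.0603), from a mean of 2989.5 ± 201.4 to one of 6691.1 ± 2242.2 (SD, n = 3 each). The call turned on the mice and on the tool. Without *Fmo5*-/- mouse 1 the log2 fold change was 1.37 (edgeR adjusted p = 0.0181), without *Fmo5*-/- mouse 3 it was 0.88 (edgeR adjusted p = 0.0118), and DESeq2 called the gene in all 6 mice (log2 fold change 1.15, adjusted p = 2.02e-06).

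**Figure D1:**
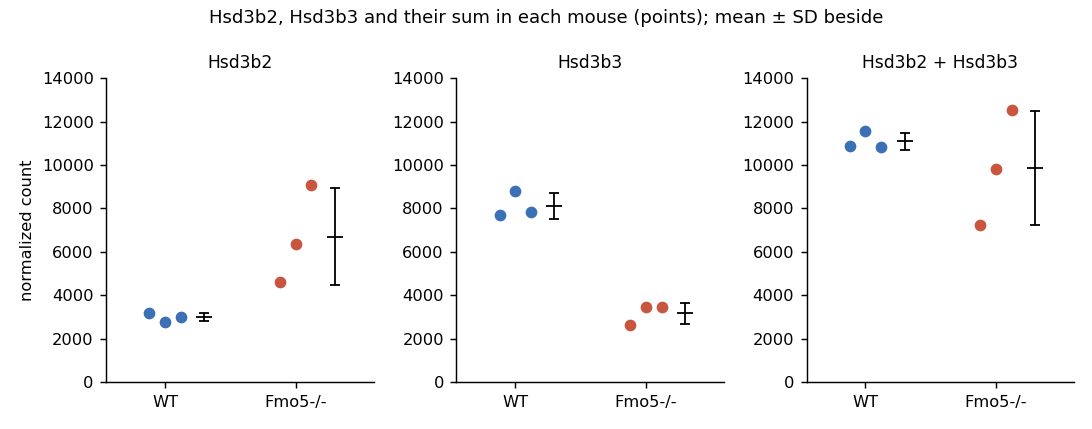
Normalized counts (linear axes from 0) of *Hsd3b2*, of *Hsd3b3* and of the reads of both genes counted together, in each WT (blue) and *Fmo5*-/- mouse (red), with the mean and SD beside the points. *Hsd3b2* lies between 4626.4 and 9076.3 in *Fmo5*-/- mice against 2777.4 to 3178.1 in WT mice, *Hsd3b3* lies between 2613.2 and 3464.9 against 7706.5 to 8785.2, and the sums of the genotypes overlap.

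The balance between the pair did not overlap between the genotypes. *Hsd3b2* had 0.412, 0.316 and 0.384 counts for each count of *Hsd3b3* in WT mice and 1.77, 1.84 and 2.63 in *Fmo5*-/- mice. The difference in the mean log2 ratio was 2.47, with an SD of 0.20 among WT and 0.32 among *Fmo5*-/- mice. A two-sided exact permutation test gave p = 0.1, the smallest that 3 against 3 mice can give (adjusted p = 0.3 over 3 ratios tested). Counted together, the reads of *Hsd3b2* and *Hsd3b3* gave normalized counts of 10884.4, 11562.4 and 10853.9 in WT mice and 7239.4, 9835.7 and 12525.1 in *Fmo5*-/- mice. These sums overlapped between the genotypes, with a log2 fold change of -0.17 (95% interval -0.57 to 0.23, edgeR adjusted p = 0.62). The direction turned on single mice, from -0.38 without *Fmo5*-/- mouse 3 to 0.01 without *Fmo5*-/- mouse 1.

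Reads that map to several places were not counted, which bears on genes that share sequence. Of the 75-base windows in the transcripts of *Hsd3b2*, 15.8% also occurred in transcripts from another place, 290 of these windows in *Hsd3b3* and 120 in *Hsd3b6*. For *Hsd3b3* the share was 4.78%, and for *Hsd3b5* it was 11.7%, with 173 windows in *Hsd3b4*. The share of reads mapped to several places was between 11.85% and 13.1% in WT and between 10.42% and 11.49% in *Fmo5*-/- libraries. Its part in the change of *Hsd3b2* and *Hsd3b3* was not tested.

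*Hsd3b5* did not separate the genotypes. Its normalized counts were 6940.8, 14466.1 and 13035.0 in WT mice and 9016.1, 6435.9 and 12992.4 in *Fmo5*-/- mice. WT mouse 1 and *Fmo5*-/- mouse 2 were lowest and the genotypes overlapped, with a spread of 34.8% of the mean in each. The log2 fold change was -0.28, and its 95% interval of -1.18 to 0.63 includes changes in either direction (edgeR adjusted p = 0.718). With single mice left out it ranged from -0.57, without *Fmo5*-/- mouse 3, to -0.06, without *Fmo5*-/- mouse 2, and was not called in any of these fits. Among the other genes of the family, *Hsd3b1*, *Hsd3b6* and *Gm4450* had at most 3.93 normalized counts in any mouse and *Hsd3b4* and *Gm10681* had 0 counts in all 6 libraries, which allows up to 3 counts in each (a limit for counting error only). The summed counts of the cluster had a log2 fold change of -0.22 (95% interval -0.71 to 0.27, edgeR adjusted p = 0.588), which single mice moved to between -0.48, without *Fmo5*-/- mouse 3, and -0.10, without WT mouse 2.

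*Hsd3b7*, the bile acid gene of the family, lies apart from the others at chr7:127800604-127803802 on the plus strand (ENSMUSG00000042289.11). It had 0 counts in all 6 libraries in the counts of both strands and could not be tested there. Of its 2769 exon bases, 99.2% are shared with exons of *Gm49388* on the same strand or of *9430064I24Rik* on the opposite strand, and a read in the exons of more than 1 gene is not counted. The counts of each strand alone held between 404 and 1075 reads of *Hsd3b7* per library. Added together and scaled, they gave 1747.3, 923.9 and 1722.8 in WT mice and 1542.3, 1950.8 and 1794.4 in *Fmo5*-/- mice. WT mouse 2 was lowest, the genotypes overlapped, and the log2 fold change was 0.27 (SE 0.24, edgeR adjusted p = 0.586). The libraries do not keep the strand, with 49.87% to 50.11% of reads in the first column, so reads of *Hsd3b7* and of its antisense neighbour cannot be told apart. In the same sums *9430064I24Rik* had means of 17632.0 in WT and 17688.9 in *Fmo5*-/- mice.

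Outside chromosome 3, *Hsd17b6* had the highest log2 fold change. It encodes an oxidase of androstanediols (ENSMUSG00000025396.7, chr10:127990936-128007611, minus strand). Its normalized counts were 4193.7, 2754.0 and 1981.5 in WT mice and 5531.0, 5820.1 and 6121.2 in *Fmo5*-/- mice. The WT mice were spread by 37.7% of their mean and the *Fmo5*-/- mice by 5.07%, and all *Fmo5*-/- mice lay above all WT mice. The log2 fold change of 0.97 (standard error 0.25, 95% interval 0.36 to 1.58) did not pass the threshold of edgeR (adjusted p = 0.1). It passed without WT mouse 1 (log2 fold change 1.30, edgeR adjusted p = 0.0155) and with DESeq2 (0.95, adjusted p = 0.000496). Of its 75-base windows, 10.4% also occur in retinol dehydrogenase genes such as *Rdh1*. *Hsd17b2*, which inactivates estradiol and testosterone (ENSMUSG00000031844.8, chr8:117701904-117759027, plus strand), had 7689.5, 9322.0 and 10864.4 normalized counts in WT and 10901.7, 10388.2 and 10247.5 in *Fmo5*-/- mice. The genotypes overlapped and the log2 fold change was 0.18 (95% interval -0.10 to 0.45, edgeR adjusted p = 0.44). With single mice left out it ranged from 0.06, without WT mouse 1, to 0.31, without WT mouse 3, and was not called. The ratio of *Hsd17b6* to *Hsd17b2* lay between 0.182 and 0.545 in WT and between 0.507 and 0.597 in *Fmo5*-/- mice, a difference of 0.84 in the mean log2 ratio (two-sided exact permutation p = 0.2, adjusted p = 0.3 over the 3 ratios).

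*Hsd11b1*, which regenerates active glucocorticoid, had lower values in *Fmo5*-/- mice without a call (ENSMUSG00000016194.14, chr1:193221634-193264075, minus strand). Normalized counts were 43739.6, 34577.4 and 36414.0 in WT mice and 32407.0, 25560.2 and 32377.0 in *Fmo5*-/- mice. The highest *Fmo5*-/- mouse lay just below the lowest WT mouse, and the log2 fold change was -0.34 (SE 0.13, 95% interval -0.64 to -0.05, edgeR adjusted p = 0.167). With no filter on low counts edgeR called it (adjusted p = 0.0138), along with 1989 of all 34200 genes with a count. *H6pd*, which supplies its NADPH, had a log2 fold change of -0.00 (edgeR adjusted p = 0.994), and *Nr3c1*, the glucocorticoid receptor, one of -0.11 (edgeR adjusted p = 0.566). Of 12 genes known to be induced by glucocorticoid, 6 had a log2 fold change above 0 and 6 below, with a median of -0.00. EdgeR called 0 of them, and 3 had an unadjusted p under 0.05, a share near the 21.8% of all genes. DESeq2 called 1 higher and 1 lower, against 4.75% and 4.21% of all genes.

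The lipid droplet pair *Hsd17b13* (ENSMUSG00000034528.15, chr5:103955440-103977410) and *Hsd17b11* (ENSMUSG00000029311.16, chr5:103989762-104021919) lies 12 kb apart on the minus strand of chromosome 5. *Hsd17b13* had 20807.6, 18175.3 and 20185.9 normalized counts in WT mice and 17536.7, 13921.9 and 15781.6 in *Fmo5*-/- mice. The genotypes did not overlap, and the log2 fold change was -0.32 (SE 0.11, 95% interval -0.57 to -0.08, edgeR adjusted p = 0.132). It was called by DESeq2 (adjusted p = 0.0489) and by edgeR with no filter on low counts (adjusted p = 0.0224), where 1989 of all 34200 genes with a count were called. *Hsd17b11* had 11015.9, 10066.2 and 8902.3 in WT mice and 8980.7, 8595.6 and 8396.9 in *Fmo5*-/- mice, which overlap (log2 fold change -0.21, 95% interval -0.43 to 0.01, edgeR adjusted p = 0.254). Single mice left out moved its log2 fold change to between -0.28, without WT mouse 3, and -0.13, without WT mouse 1, with no call. The ratio of *Hsd17b13* to *Hsd17b11* lay between 1.81 and 2.27 in WT and between 1.62 and 1.95 in *Fmo5*-/- mice (two-sided exact permutation p = 0.5). Beside them, edgeR called 3 of 17 tested genes of lipid droplet proteins, all lower in *Fmo5*-/- mice, against 0.693% of all genes in that direction. Of the 17, 15 had a log2 fold change below 0, where 49.2% of all genes did, with a median of -0.43. An unadjusted p under 0.05 was found in 10, against 21.8% of all genes, and DESeq2 called 9 lower against 4.21% of all genes. The 3 were *Cidea* (log2 fold change -5.39), *Cidec* (-1.31), both of which promote droplet fusion, and *Fitm1* (-0.89), which acts in droplet formation. *Cidec* was no longer called without WT mouse 1 (edgeR adjusted p = 0.0695), WT mouse 2 (0.0557) or *Fmo5*-/- mouse 1 (0.101). *Cidea* is also 1 of 5 adipose tissue markers, whose summed level was between 1.44 and 4.16 CPM in WT and between 0.101 and 0.282 CPM in *Fmo5*-/- mice, with none at 0 in all libraries. WT mouse 1 stood highest in the other 4 of these, among them *Adipoq*, which encodes adiponectin (40.2 normalized counts, against at most 7.34 in any other mouse), whereas *Cidea* was highest in WT mouse 2 (138.4). The part of adipose RNA in the values of *Cidea* was not tested.

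*Srd5a1*, which reduces testosterone (ENSMUSG00000021594.11, chr13:69573449-69611442, minus strand), had 4049.7, 3929.0 and 4609.1 normalized counts in WT mice and 3539.2, 3421.7 and 4029.1 in *Fmo5*-/- mice. The genotypes overlapped at *Fmo5*-/- mouse 3, and the log2 fold change was -0.20 (SE 0.097, 95% interval -0.41 to 0.02, edgeR adjusted p = 0.28). Leaving out single mice moved it to between -0.27, without *Fmo5*-/- mouse 3, and -0.12, without WT mouse 3, with no call. Of its exon bases, 16.4% are shared with *Gm17108* on the same strand, where reads were not counted.

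**Figure D2:**
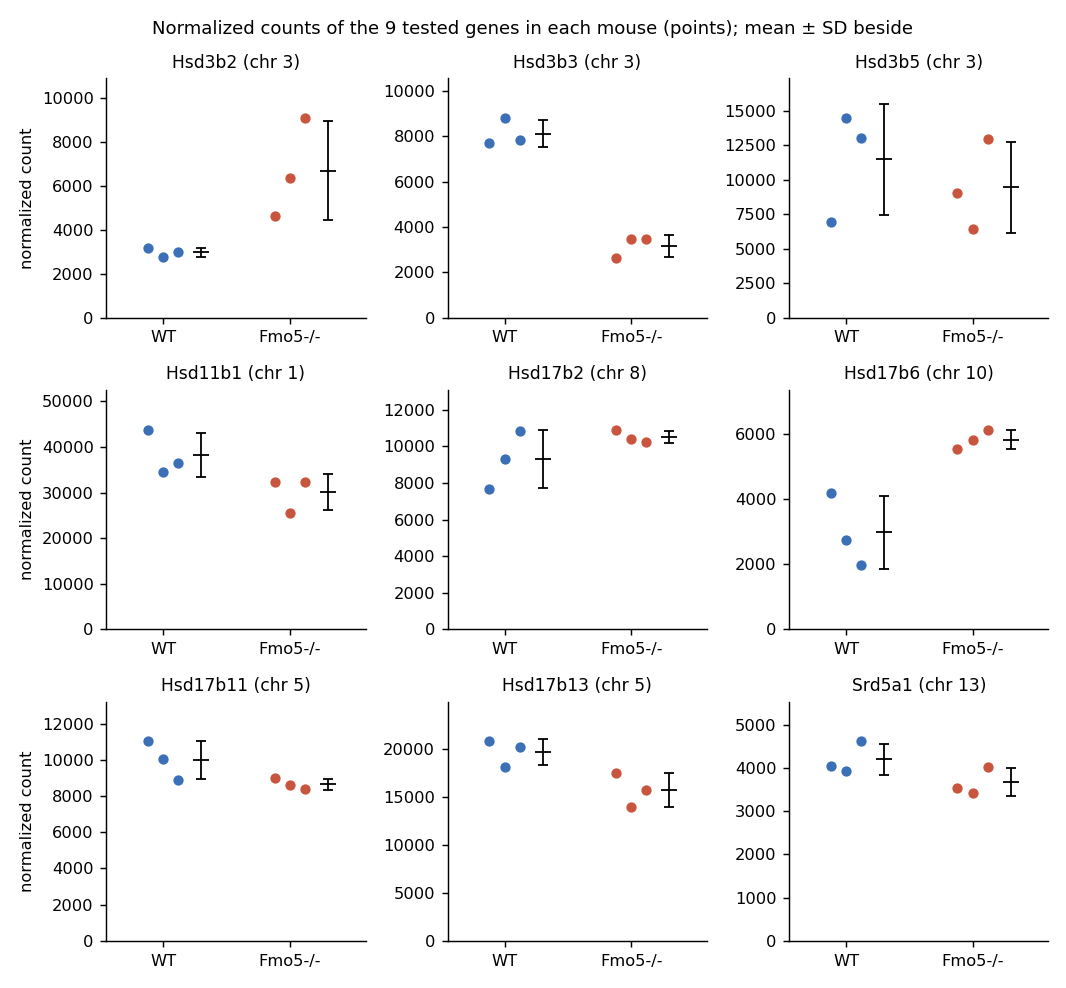
Normalized counts (linear axes from 0) of the 9 tested genes in each WT (blue) and *Fmo5*-/- mouse (red), with the mean and SD of each genotype beside the points. The genotypes do not overlap in *Hsd3b2*, *Hsd3b3*, *Hsd11b1*, *Hsd17b6* and *Hsd17b13*, and overlap in the other 4.

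Set side by side, the chromosome 3 genes and the others gave 1 call in 3 and 0 in 6. The log2 fold changes of *Hsd3b2*, *Hsd3b3* and *Hsd3b5* were between 0.28 and 1.35 in size, with a median of -0.28. Those of the 6 tested genes elsewhere were between 0.18 and 0.97 in size, with a median of -0.20, and the median over all tested genes was 0.006. Of the 3 cluster genes, 2 had an unadjusted p under 0.05 (21.8% of all genes did), and DESeq2 called 2. Of the 6, edgeR called 0, 3 had an unadjusted p under 0.05, and DESeq2 called 2 (it called 8.96% of all genes that it tested). Over both groups, edgeR called 1 of 9 where 1.37% of all tested genes were called, and in 5 of 9 the genotypes did not overlap where 27.4% of all tested genes did so. DESeq2 called 2 of the 9 higher and 2 lower, against 8.96% of all genes that it tested. These counts are a description of 9 genes and were not tested.

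**Figure D3:**
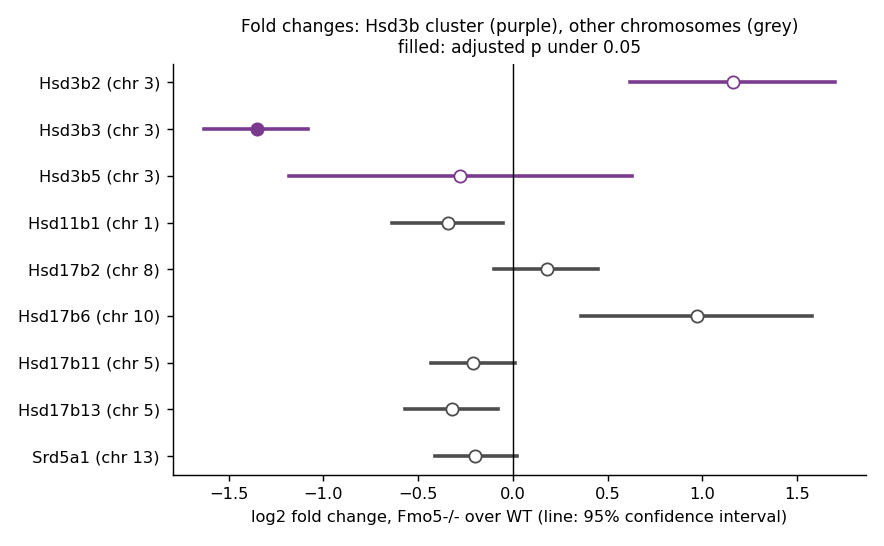
Log2 fold change (*Fmo5*-/- over WT) of each tested gene with its 95% confidence interval. Genes of the *Hsd3b* cluster are purple and genes of other chromosomes grey, and the filled point is the one called by edgeR. The intervals of *Hsd3b2*, *Hsd3b3*, *Hsd11b1*, *Hsd17b6* and *Hsd17b13* do not reach 0.

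The share of called genes was counted by position, without a test. Within 20 Mb of *Fmo5*, 18 of 427 tested genes were called (4.22%, *Fmo5* itself left out and *Hsd3b3* included), 12 higher and 6 lower. Farther off on chromosome 3 it was 21 of 438 (4.79%), 5 higher and 16 lower, and on the other chromosomes 189 of 15863 (1.19%). Of 9 other tested genes that start between *Fmo5* and the far end of the cluster, edgeR called 0, and 3 had an unadjusted p under 0.05 (against 21.8% of all genes). DESeq2 called 3 of the 9, against 8.96% of all genes that it tested. The log2 fold changes of the 9 were between -0.88 and 0.44. *Hsd3b2* and *Hsd3b3* lie 1054 and 1086 kb from *Fmo5*. The disruption of *Fmo5* and any other difference in the DNA around it cannot be told apart in these groups.

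**Figure D4:**
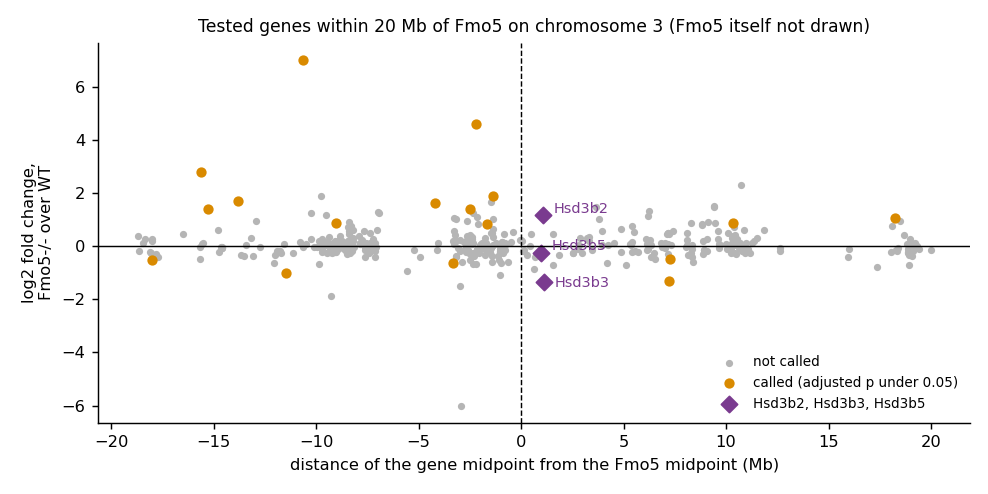
Log2 fold change (*Fmo5*-/- over WT) of the tested genes within 20 Mb of *Fmo5*, against the distance of their midpoints in Mb, with called genes in orange and the 3 cluster genes as purple diamonds. *Hsd3b2* at 1.16 and *Hsd3b3* at -1.35 lie on opposite sides of 0, at nearly the same distance from *Fmo5*.

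Levels were compared between genes only per length, as scaled CPM per kb of merged exons. In WT mice *Hsd17b13* had 187 ± 13.1, *Hsd11b1* 184 ± 23.4 and *Hsd3b5* 152 ± 52.8 (SD, n = 3 each). These 3 neighbours in the order overlapped from mouse to mouse. *Hsd17b2* followed with 98.9 ± 16.9. Its range overlapped that of *Hsd3b5*, but it was below *Hsd3b5* in each WT mouse. *Hsd17b11* with 62.7 ± 6.64 and *Hsd17b6* with 38.7 ± 14.6 stood apart from *Hsd17b2* and from each other. *Srd5a1* (29.5 ± 2.55) lay within the range of *Hsd17b6* and overlapped *Hsd3b3* (26 ± 1.88), and *Hsd3b2* (16.6 ± 1.12) was below both in all 3 mice. In *Fmo5*-/- mice the last places differed, with *Hsd3b2* at 37.1 ± 12.4 and *Hsd3b3* lowest of the 9 at 10.2 ± 1.56. As a share of the summed level of the group, *Hsd3b2* made up between 1.92% and 2.27% in WT mice and between 3.44% and 6.22% in *Fmo5*-/- mice, and *Hsd3b3* between 3.1% and 3.52% and between 1.12% and 1.7%. *Hsd17b6* went from between 3.18% and 7.02% to between 9.65% and 11.6%. The summed level was between 776 and 811 in WT mice and between 651 and 809 in *Fmo5*-/- mice.

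**Figure D5:**
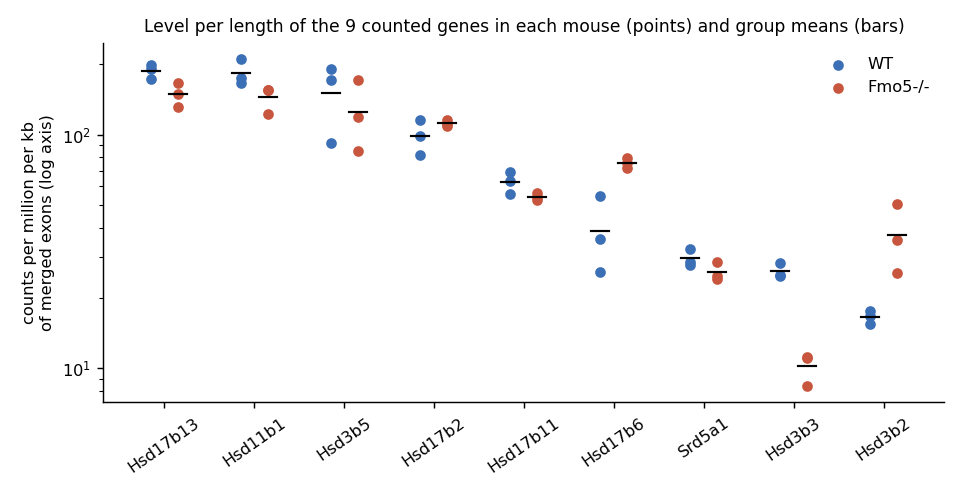
Scaled CPM per kb of merged exons (log axis) of the 9 counted genes in each WT (blue) and *Fmo5*-/- mouse (red), ordered by the WT mean, with group means as bars. *Hsd17b13* and *Hsd11b1* have the highest means in WT mice at 187 and 184, though *Hsd3b5* lies above both in WT mouse 2. *Hsd3b3* has the lowest mean in *Fmo5*-/- mice at 10.2.

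Other genes of steroid metabolism were read from lists. Among 8 tested hydroxysteroid dehydrogenase genes outside the 10, edgeR called 1, *Hsdl2*, a peroxisomal member of the family (log2 fold change -0.70, edgeR adjusted p = 0.0263), against 0.693% of all genes in that direction. *Hsdl2* was not called without WT mouse 1 (adjusted p = 0.0921), WT mouse 2 (0.0666), *Fmo5*-/- mouse 1 (0.0898) or *Fmo5*-/- mouse 2 (0.0669). DESeq2 called 4 of the 8, all lower, against 4.21% of all genes in that direction, and 7 had an unadjusted p under 0.05 (against 21.8%). The log2 fold change was below 0 in 5 and above 0 in 3, with a median of -0.32. Of 9 tested steroid reductases and aldo-keto reductases, 8 had a log2 fold change below 0 (median -0.26). EdgeR called 0, 5 had an unadjusted p under 0.05 (against 21.8% of all genes), and DESeq2 called 2 lower (against 4.21%). All 13 bile acid genes had a log2 fold change at or below 0 (median -0.25), with 0 called by edgeR, 6 at an unadjusted p under 0.05 (against the same 21.8%) and 3 called lower by DESeq2 (against the same 4.21%). The lists share genes and are not separate. *Hsd17b4* of the dehydrogenases, *Akr1d1* and *Akr1c6* of the reductases and *Cyp7b1* of the male-biased genes below are also bile acid genes here. *Cyp7a1*, the rate-limiting enzyme of bile acid synthesis, had a log2 fold change of -0.20 (edgeR adjusted p = 0.844), and *Baat*, which conjugates bile acids, one of -0.48 (edgeR adjusted p = 0.0552).

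Sex-biased genes were examined because *Hsd3b5* is one. Of 19 other male-biased genes, edgeR called 0, 4 had an unadjusted p under 0.05, a share near the 21.8% of all genes, and DESeq2 called 3 lower (against 4.21%), with 14 log2 fold changes below 0 and a median of -0.18. *Selenbp2* had the lowest log2 fold change (-6.00, edgeR adjusted p = 0.0736), with 3817.8, 26124.7 and 23008.9 normalized counts in WT mice and 177.0, 201.9 and 452.6 in *Fmo5*-/- mice. It is also a near neighbour of *Fmo5* on chromosome 3, with its midpoint at -2.943 Mb from that of *Fmo5*. WT mouse 1, lowest of its genotype in *Hsd3b5*, was lowest of the WT mice in 17 of the 19, against 31.4% of all tested genes. Without it, edgeR called 2 of the 19, *Selenbp2* (log2 fold change -6.46, adjusted p = 0.0384) and *Moxd1* (-6.10, adjusted p = 0.00309), against 0.203% of all genes in that direction. Of the 19, 18 then had a log2 fold change below 0 and the median was -0.31. Leaving out the lowest WT value lowers a log2 fold change, so this shift followed from the choice of mouse and is no further support. In all 6 mice *Moxd1* had 2.12, 566.9 and 572.6 normalized counts in WT and 16.8, 2.75 and 4.91 in *Fmo5*-/- mice. These overlap (log2 fold change -5.52, edgeR adjusted p = 0.196). Of 11 tested female-biased genes edgeR called 1, *Atp6v0d2* (log2 fold change 0.84, edgeR adjusted p = 0.0459, against 0.675% of all genes in that direction). This call was kept without *Fmo5*-/- mouse 3 (adjusted p = 0.0311) and lost without each of the other 5 mice (adjusted p between 0.067 and 0.138) and without other genes of chromosome 3 (0.0522). Of 16 genes of growth hormone signalling and of its partners, edgeR called 0, and 1 had an unadjusted p under 0.05 (against 21.8% of all genes). DESeq2 called 1 lower (against 4.21%), and the median log2 fold change was 0.03. *Stat5b* was at 0.01 and *Igf1*, a hepatic target of growth hormone, at 0.13. The 16 log2 fold changes ran from -0.50 (*Esr1*) to 1.05 (*Socs2*), with 9 above 0 and 7 below. *Socs2* had 131.3, 1625.8 and 355.8 normalized counts in WT and 1037.8, 1263.9 and 2068.5 in *Fmo5*-/- mice. *Cish* (log2 fold change 1.01) had 279.6, 1114.8 and 805.7 in WT and 307.4, 1541.1 and 2567.3 in *Fmo5*-/- mice. The genotypes overlapped in both, and the spread between mice was too wide to tell a change from none in these genes.

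Markers of immune cells had higher values in *Fmo5*-/- mice. All 10 Kupffer cell markers had a log2 fold change above 0 (median 1.12), 1 of them was called by edgeR (*Clec4f*, 0.70, adjusted p = 0.0275, against 0.675% of all genes in that direction) and 9 by DESeq2 (against 4.75%). *Clec4f* was not called without WT mouse 1 (edgeR adjusted p = 0.0695) or *Fmo5*-/- mouse 1 (0.102), nor, closely, without WT mouse 2 or *Fmo5*-/- mouse 2 (0.05 and 0.06). The summed level of the markers was 306, 319 and 270 CPM in WT mice and 742, 769 and 421 in *Fmo5*-/- mice. *Fmo5*-/- mouse 3, highest of all in *Hsd3b2* and *Hsd17b6*, was lowest of its genotype in these markers. The 8 lymphocyte markers were also all above 0 (median 1.03), with 0 called by edgeR, 4 at an unadjusted p under 0.05 (against 21.8% of all genes) and 3 by DESeq2 (against 4.75%). Of 7 neutrophil markers 4 could be tested, all above 0 (median 1.26), and *Ly6g* was at or near 0 in every library. Of the 4, 3 had an unadjusted p under 0.05 (against 21.8% of all genes). Among these 3, *S100a8* and *S100a9* lie within 20 Mb of *Fmo5* on chromosome 3, at -6.973 and -6.948 Mb. The Kupffer cell marker *Cd5l* does so too, at -10.278 Mb. Of the 4 neutrophil markers, DESeq2 called 2 higher (against 4.75% of all genes) and edgeR 1 (against 0.675%). The call was *Csf3r*, the receptor of granulocyte colony-stimulating factor (log2 fold change 1.25, edgeR adjusted p = 0.0468), which was kept without *Fmo5*-/- mouse 3 (adjusted p = 0.00438) and lost without each of the other 5 mice (between 0.0889 and 0.134), without the robust fit (0.0541) and without other genes of chromosome 3 (0.0522). The median of the hepatocyte markers was -0.06. The part of these shifts in the values of the 10 genes was not tested.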

How the data were processed

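Livers of 3 WT and 3 *Fmo5*-/- male mice were profiled as 1 library of 75-base single reads per mouse. The authors mapped reads to mm10 with STAR 2.6.0c and deposited raw counts per gene for both strands and for each strand alone. Their table of normalized signal, log2 fold changes, Wald score and p-values came from DESeq2 1.22.2. The deposited counts of both strands were analysed here, since the deposited signal is those counts over 1 factor per library, and the authors' own comparison was not used. The mice are separate animals, numbered here in accession order within each genotype, and the numbers pair no mice.

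Genes were joined by Ensembl identifier, and 10 of 10 symbols were found. Positions, exons and transcripts came from GENCODE vM21 and promoter windows from RefSeq (GRCm38.p6). In R 4.3.3, genes were kept by filterByExpr (minimum count 10), and after TMM scaling the genotypes were compared by edgeR 4.0.16 (robust quasi-likelihood fit and test). P-values were adjusted by Benjamini-Hochberg over 16734 genes. Standard errors are the log2 fold change over the square root of F. Normalized counts are counts over the scaled library size, times the mean of the 6 sizes.

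The genes and lists were chosen with earlier results of these data known. Named are the 10 genes, *Fmo5*, listed genes that were called or that define a list, and, in each direction, the gene of smallest adjusted p. Alternatives were DESeq2 1.42.0, RLE scaling, TMM without the 20 most abundant genes, no filter beyond 1 count, a mean of 500 or more before the fit, 1 strand, no robust fit, each mouse left out, windows of 10 and 40 Mb and other lengths. Summed strands, summed *Hsd3b* genes, and a fit without other genes of chromosome 3 were chosen after seeing the data. Steps were tested on simulated data. Depth was 44886286 to 52338675 counts. Sampling error was not compared with the spread between mice, and it is relatively larger for genes with few counts. A count of 0 allows up to 3 counts at 95% confidence.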

Additional observations from a re-analysis of the deposited data

Results flagged for a closer look

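*Hsd3b7* gave a signal in values that the comparison did not use. It had 0 counts in the counts of both strands, and a mean normalized count of 1613.6 over the 6 libraries in the sum of the counts of each strand alone, which was chosen after seeing the data. Groups of 3 mice are too small for the search for single outlying mice.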

How the results depend on the processing

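Over 135 refits of the 9 tested genes, 125 gave the same direction and the same side of the threshold, 10 gained a call, and 0 lost one or changed sign. The log2 fold change of *Hsd3b2* was 1.15 and called with no filter on low counts, 1.16 and called without the robust fit, and 1.15 and called with DESeq2, and it ranged from 0.88 to 1.37 with single mice left out. *Hsd17b6* was at 0.95 with DESeq2 and between 0.75 and 1.30 with single mice left out. *Hsd11b1* was at -0.36 and *Hsd17b13* at -0.34 with no filter, and *Hsd17b13* at -0.34 with DESeq2, all of them called. With a mean of 500 or more before the fit, *Hsd17b11* was at -0.14 and *Srd5a1* at -0.13, neither of them called. Of the 9 genes, 4 were called with no filter, where 1989 of all 34200 genes with a count were called. DESeq2 called 4, against 8.96% of all genes that it tested. Without the robust fit 2 were called, against 170 of all 16734 genes. With single mice left out the count was 1 to 2, against 31 to 763 of all genes tested. In the *Hsd3b* cluster the count was 2 under each of these 3 settings and 1 to 2 without single mice. On other chromosomes it was 2 with no filter, 2 with DESeq2 and 0 to 1 without single mice. Of all genes, 1989 were called with no filter, 53 with the limit of 500 before the fit, 1395 with DESeq2, 116 without other genes of chromosome 3, and from 31, without *Fmo5*-/- mouse 1, to 763, without *Fmo5*-/- mouse 3. The number of genes tested differs between these settings, with 15571 for DESeq2. Of the listed steroid, sex-biased, growth hormone and glucocorticoid genes outside the 10, 2 were called, and 20 with no filter, 1 with the limit of 500, 15 with DESeq2, 1 without other genes of chromosome 3, and 0 to 5 without single mice. The summed *Hsd3b2* and *Hsd3b3* counts, at -0.17 in all mice, ranged from -0.38 without *Fmo5*-/- mouse 3 to 0.01, the opposite sign, without *Fmo5*-/- mouse 1 (edgeR adjusted p = 0.979). The cause of these shifts was not tested. The share of genes called near *Fmo5* was 3.16% within 10 Mb and 4.67% within 40 Mb. By the longest transcript the WT level per kb was 396 for *Hsd11b1* and 237 for *Hsd17b13*, and 34.9 for *Hsd3b3* and 32.5 for *Srd5a1*, which reverses the order within both pairs, as does 1 strand (180 and 170, then 30.3 and 30.2). No paired analysis was possible because the labels give no replicate numbers and tie no WT mouse to an *Fmo5*-/- mouse. Where the interval includes changes in either direction, as for *Hsd3b5*, a difference of the size seen could not be told from none with 3 mice per genotype.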
